A study of Mus musculus with 1 sample.

Results

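Potassium channel subunits were examined in cultured VM-glia, primary mixed glia of the mouse ventral midbrain taken at postnatal day 5. Members were chosen by symbol, as every gene whose symbol starts with Kcn, leaving out Kcnq1ot1 and symbols ending in os. This gave 96 of the 23282 genes in the table. Of these, 94 encode channel subunits or a regulator, and the other 2, Kcnmb4os1 and Kcnmb4os2, are opposite-strand RNAs of Kcnmb4 that encode no subunit. They had normalized read counts of 19 and 15 and entered no class below. The study concerned SGK1, the serum- and glucocorticoid-regulated kinase, in glia, and the data were 1 RNA-seq library of control cultures from the outbred ICR(CD-1) strain. The vehicle of the control was DMSO. The treatment notes also mention toxins, and whether this library received any was not stated. Inhibitor-treated cultures were not analysed here, so no contrast between groups was made. With 1 library there is no replicate error, and differences between genes are given without a test. Mixed cultures hold several cell types, so a high value from a few cells and a lower value from many cannot be told apart.

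Potassium channels set the resting membrane potential and return it to rest after depolarization. Astrocytes are known for a strong resting potassium conductance, carried largely by inward rectifiers, which lets them take up the potassium that active neurons release. Microglia use a smaller set of channels, among them tonically open two-pore channels and channels opened by voltage or calcium, and potassium efflux through such channels is a known trigger of the NLRP3 inflammasome. SGK1 is known to raise the activity of several potassium channels, partly by restraining the ubiquitin ligase Nedd4-2, which removes channels from the cell surface.

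Channel subunits of these classes share a pore loop with a short signature that forms the selectivity filter. In the coding sequences it reads as codons for threonine, any residue, glycine, tyrosine or phenylalanine, and glycine. The stretches below are shown because they are the piece of sequence that joins high members of otherwise unlike classes. Each is a coding stretch in the GENCODE M21 annotation of GRCm38, with the signature codons in capitals.
Kcnj15, chr16:95295965-95296009, plus strand: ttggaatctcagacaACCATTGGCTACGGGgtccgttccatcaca
Kcnj16, chr11:111024889-111024933, plus strand: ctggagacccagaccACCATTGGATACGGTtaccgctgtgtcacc
Kcnj2, chr11:111072192-111072236, plus strand: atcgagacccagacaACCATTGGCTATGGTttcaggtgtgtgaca
Kcnk13, second pore, chr12:100061361-100061405, plus strand: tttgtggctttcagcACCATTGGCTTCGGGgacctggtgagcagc
Kcna2, chr3:107105209-107105253, plus strand: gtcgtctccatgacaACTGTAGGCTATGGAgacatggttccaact
Kcnn4, chr7:24379183-24379227, plus strand: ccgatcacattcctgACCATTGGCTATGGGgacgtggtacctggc
The signature was found in frame in 66 of the 94 subunit genes, against 230 (1.06%) of 21630 protein-coding genes. It was present in 14 of 15 inward rectifiers, 23 of 30 voltage-gated pore-forming genes, all 10 silent modifiers and 5 of 8 calcium-activated pore-forming genes. All 14 two-pore genes held it, and 11 of them held it in 2 places. None of the 12 voltage-gated and 4 calcium-activated accessory genes held it. Genes without a match included Kcnj14, Kcnn1, Kcnn2, Kcnn3 and 7 of the Kcnh genes, so a missing match says only that this codon pattern was not found.

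The values were normalized read counts per gene. Their sum over all genes was 27569507. Genes were called detected from a value of 10 upward. Of the 94 subunit genes, 53 (56.4%) were detected, beside 67.2% of all genes in the table. A value of 100 or more was reached by 19 members, beside 51.6% of all genes, and 19 members were listed at 0. The median value of the members was 12.5, against 119 over all genes. Together the members held 0.0502% of the sum.

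Since long transcripts collect more reads, genes were compared by a level, the value per kilobase of annotated exon per 1000000 of the sum. The median level was 0.119 over the 94 members and 1.12 over all genes with a length. Only 10 members had a level above 3.72, the median of all detected genes, which 33.8% of all genes with a length exceeded. The distribution was steep. The 10 highest members held 75.7% of the summed level of all 94 members, and the 20 highest held 90.1%. Kcnj10 alone held 13.7% and Kcnab2 12.9%. Of the 4 classes, inward rectifiers held 41.8% of the summed level, voltage-gated subunits 28.4%, two-pore channels 19.5% and calcium-activated subunits 10.1%.

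**Figure D1:**
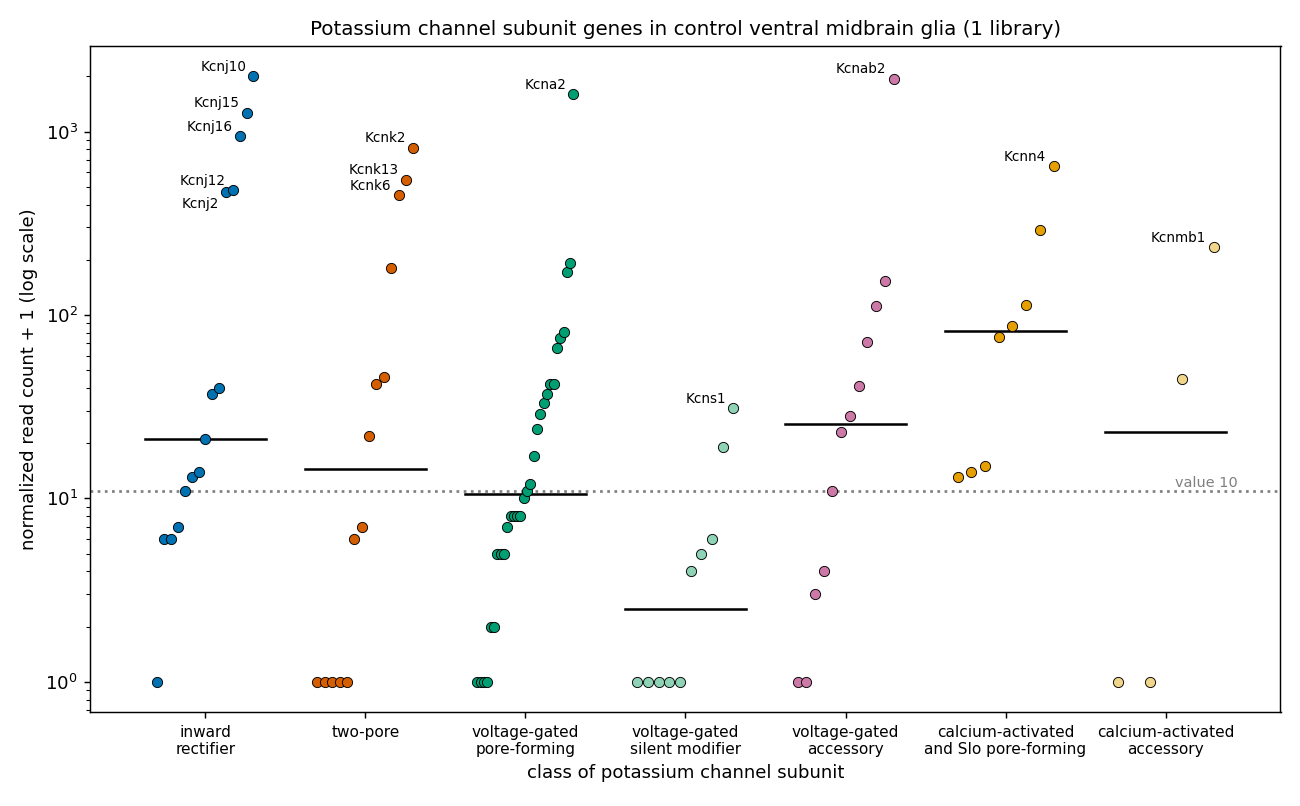
Normalized read count plus 1 (log scale) of each potassium channel subunit gene in the control library, by class, with 1 point per gene and the class median as a bar. Points at the bottom are genes listed at 0, the dotted line marks a value of 10, and most classes hold a few high genes above a broad low group. Kcnrg, which belongs to no class, is not drawn.

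Inward rectifiers (Kir channels) pass potassium more easily into the cell than out of it. Of 15 genes, 11 (73.3%) were detected, beside 67.2% of all genes. Kcnj10 had the highest value of all members. It encodes Kir4.1, the main potassium conductance of astrocytes, and had a value of 2002 and a level of 13.4. Kcnj16 encodes Kir5.1, which joins with Kir4.1 or Kir4.2 in mixed channels and changes their sensitivity to pH. It had a value of 943 and a level of 8.69, so the level of Kcnj10 was 1.55 times that of its partner. Kcnj15, which encodes Kir4.2, the close relative of Kir4.1, had a value of 1265 and a level of 7.27. All 3 genes of the Kir4 and Kir5 families were thus within the 4 highest members by level, and within the 5 highest with the longest transcript as length.

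Among inward rectifiers, Kcnj12 and Kcnj2 of the strongly rectifying Kir2 family came next by value. Kcnj12 (Kir2.2) had a value of 478 and a level of 6.3, and Kcnj2 (Kir2.1) a value of 467 and a level of 3.11. The values were near equal, but the annotated exons of Kcnj12 are shorter, 2750 against 5444 bases, so the level of Kcnj2 was 0.494 times that of Kcnj12. The other Kir2 genes were low, with Kcnj4 at a value of 20 and Kcnj14 at 13. No inward rectifier had a value between 39 and 467, which left 5 high genes apart from the rest.

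The remaining inward rectifiers belong to families known best outside glia. Of the G protein-gated Kir3 genes, Kcnj6 had a value of 39, Kcnj9 of 12, Kcnj5 of 6 and Kcnj3 of 5. Kcnj6 encodes Kir3.2, which is known from midbrain dopamine neurons. The ATP-sensitive Kir6 genes were not detected, with Kcnj8 at 5 and Kcnj11 listed at 0. Kcnj13 (Kir7.1), a channel of choroid plexus epithelium, had a value of 36 and a level of 1.03. Of its 1270 exon bases, 623 overlap Gigyf2 on the opposite strand, which had a value of 1712. Kcnj1, which encodes the renal channel Kir1.1, had a value of 10.

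Two-pore channels carry 2 pore loops per subunit and leak potassium at rest. Of 14 genes, 7 (50%) were detected, beside 67.2% of all genes, and 3 lay well above the others in the class. Kcnk2 encodes TREK-1, a channel opened by stretch and by fatty acids, and had a value of 817 and a level of 6. The gene lies on the minus strand at chr1:189207930-189402273 (GRCm38). Kcnk13 encodes THIK-1, the tonic potassium channel of surveying microglia. It had a value of 544 and a level of 6.34. The order of these genes depended on the length used, since with the longest transcript as length Kcnk2 had a level of 8.3 and Kcnk13 of 6.41. Kcnk6 encodes TWIK-2, a channel linked to potassium efflux in macrophages, and had a value of 449 and a level of 3.92. Kcnk3 (TASK-1), an acid-sensitive leak channel, followed at a value of 179 and a level of 1.63.

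Close relatives within the two-pore class differed widely in level. Kcnk2 had 35.4 times the level of Kcnk10 (TREK-2), which had a value of 41. Kcnk6 had 5.37 times the level of Kcnk1 (TWIK-1), which had a value of 45 although it is often described in astrocytes. Kcnk12 (THIK-2), the relative of Kcnk13, was listed at 0. The imprinted gene Kcnk9 (TASK-3) had a value of 21, and Kcnk5 and Kcnk7 had 6 and 5. Kcnk4, Kcnk15, Kcnk16 and Kcnk18 were also listed at 0.

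Voltage-gated channels open on depolarization, and of the 30 pore-forming genes 15 (50%) were detected, beside 67.2% of all genes. Kcna2 was the highest of the 30 genes and held 46.7% of their summed level. Kcna2 encodes Kv1.2, best known from the axons of neurons beside the node of Ranvier, and had a value of 1595 and a level of 4.86. Its annotated exons span 11906 bases, so its rank among members was 3 by value and 8 by level. Kcna1 (Kv1.1), which joins with Kv1.2, had a value of 170 and a level of 1.29, and the level of Kcna2 was 3.77 times as high.

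Kcna3 and Kcna5, the Kv1 genes in the microglial set used below, were low. Kcna3 (Kv1.3) had a value of 28 and a level of 0.534, and the level of Kcna2 was 9.1 times as high. Kcna5 (Kv1.5) had a value of 7. Among the other families, the Kv3 genes Kcnc1 and Kcnc2, which serve fast firing, had values of 32 and 7. The 3 Kv4 genes ranged from 10 for Kcnd2 to 65 for Kcnd1. The Kv7 genes, which carry the M-current and the slow cardiac current, were low. Of these 5 genes, 1 (20%) was detected, beside 67.2% of all genes. This was Kcnq5 at a value of 23, while Kcnq1 had 7. Kcnq3 was listed at 0. The 8 Kcnh genes reached at most 41, for Kcnh2. Kcnh5, Kcnh7 and Kcna10 were listed at 0.

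Silent modifiers do not form channels alone but join with Kv2 subunits. Only Kcns1, at a value of 30, and Kcns3, at 18, were detected of 10 genes (20%), beside 67.2% of all genes. Kcnf1, Kcng3, Kcns2, Kcnv1 and Kcnv2 were listed at 0.

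Accessory subunits of the voltage-gated class bind pore-forming subunits from the cytoplasm or within the membrane. Kcnab2 encodes the Kv1 partner Kv beta 2, which has the fold of an aldo-keto reductase. It had a value of 1942 and a level of 12.6, second among all members on both scales. With the longest transcript as length its level was 18, above Kcnj10. The gene lies on the minus strand at chr4:152390742-152477871 (GRCm38). Its level was 2.6 times that of Kcna2 and 42.7 times that of its relative Kcnab1, which had a value of 70. Kcnab3 had a value of 40. Of the KChIP genes, calcium-binding partners of Kv4 channels, Kcnip3 had a value of 153 and Kcnip1 of 111, while Kcnip4 had 27 and Kcnip2 had 2. Kcnip3 also encodes the transcriptional repressor DREAM. The Kv4 genes themselves summed to a level of 0.671 and the KChIP genes to 2.51. Of the single-pass KCNE subunits, Kcne3 was highest at a value of 22, and Kcne2 and Kcne4 were listed at 0.

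Calcium-activated channels couple a rise in cell calcium to potassium efflux. All 8 pore-forming genes of this class and of the related Slo family were detected, beside 67.2% of all genes. Kcnn4 encodes the intermediate-conductance channel (KCa3.1), known from microglia and T cells, and had a value of 646 and a level of 4.58. The small-conductance SK genes were lower. Kcnn2 had a value of 291 and a level of 1.41, Kcnn3 a value of 113 and a level of 0.392, and Kcnn1 a value of 75 and a level of 0.593. The level of Kcnn4 was 3.24 times that of Kcnn2.

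For the large-conductance BK channel, an accessory gene had a higher level than the pore-forming gene, as Kcnab2 had beside Kcna2. Kcnma1, the only BK pore-forming gene, had a value of 86 and a level of 0.184 over 16976 exon bases. Kcnmb1, whose product raises the calcium sensitivity of BK channels in smooth muscle, had a value of 233 and a level of 2.02, which is 11 times that of Kcnma1. The size of this factor depended on the length used, since with the longest transcript as length Kcnma1 had a level of 0.258 and Kcnmb1 of 2.02. Kcnmb4, the accessory subunit known from neurons, had a value of 44, and its exons overlap both Kcnmb4os1 and Kcnmb4os2 on the opposite strand. Kcnmb2 and Kcnmb3 were listed at 0. The Slo relatives Kcnu1, Kcnt1 and Kcnt2 had values of 14, 13 and 12. Kcnrg, a regulator outside the classes, had a value of 8.

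**Figure D2:**
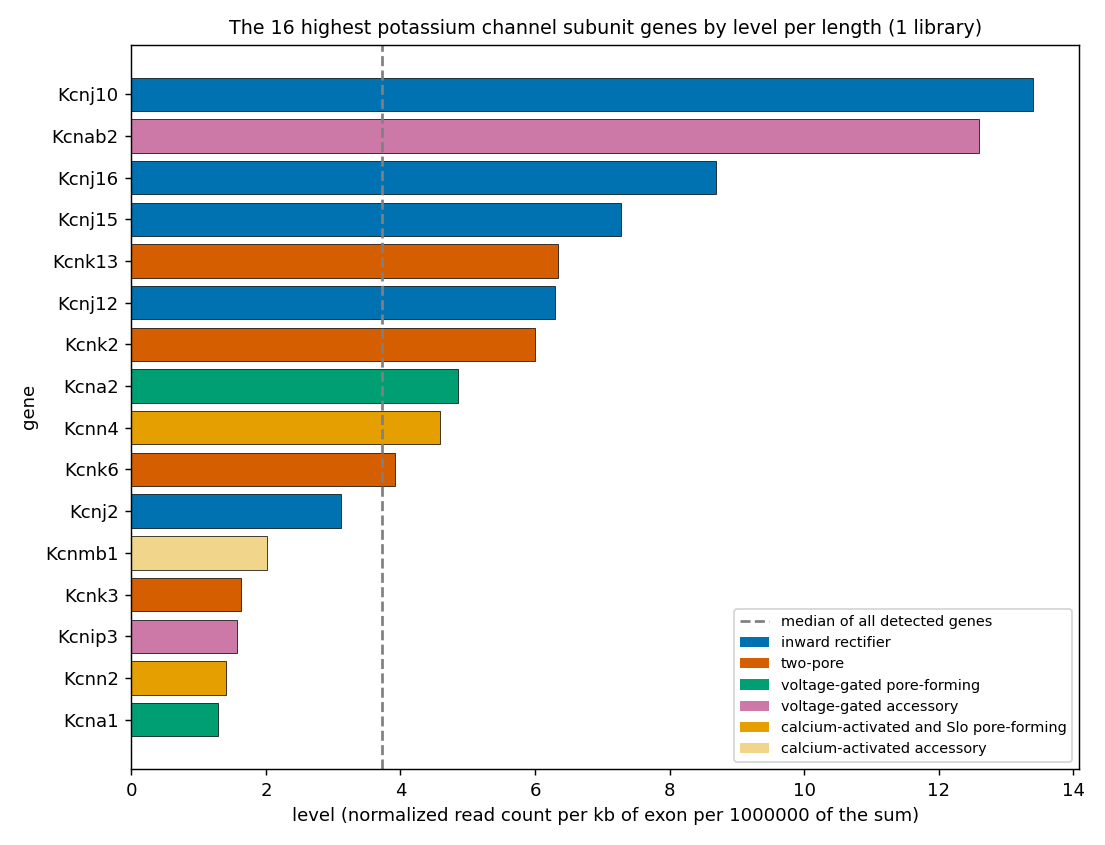
Level (normalized read count per kilobase of exon per 1000000 of the sum) of the 16 highest potassium channel subunit genes in the control library, with bars from 0 and colours by class. The dashed line is the median of all detected genes, 3.72, and 10 members, from Kcnj10 at 13.4 to Kcnk6 at 3.92, lie above it.

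Summed by family, Kir4 was highest with a level of 20.7. It was followed by the Kv beta subunits with 13.4, Kir2 with 9.93, Kir5 with 8.69 and Kv1 with 7.47. The two-pore families THIK, TREK and TWIK had 6.34, 6.16 and 4.77. With the longest transcript as length TREK had 8.5, above Kv1 with 7.86 and THIK with 6.41. The highest gene held 94% of the sum in Kv beta (Kcnab2), 100% in THIK (Kcnk13), 97.3% in TREK (Kcnk2) and 82.3% in TWIK (Kcnk6). It held less in Kv1 (Kcna2, 65%), Kir4 (Kcnj10, 64.9%) and Kir2 (Kcnj12, 63.5%), though still most of the sum. The Kv3, Kv4 and Kv7 families had sums of 0.695, 0.671 and 0.234. Families with no detected gene were Kir6, TALK, TRESK, Kv5, Kv6 and Kv8.

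**Figure D3:**
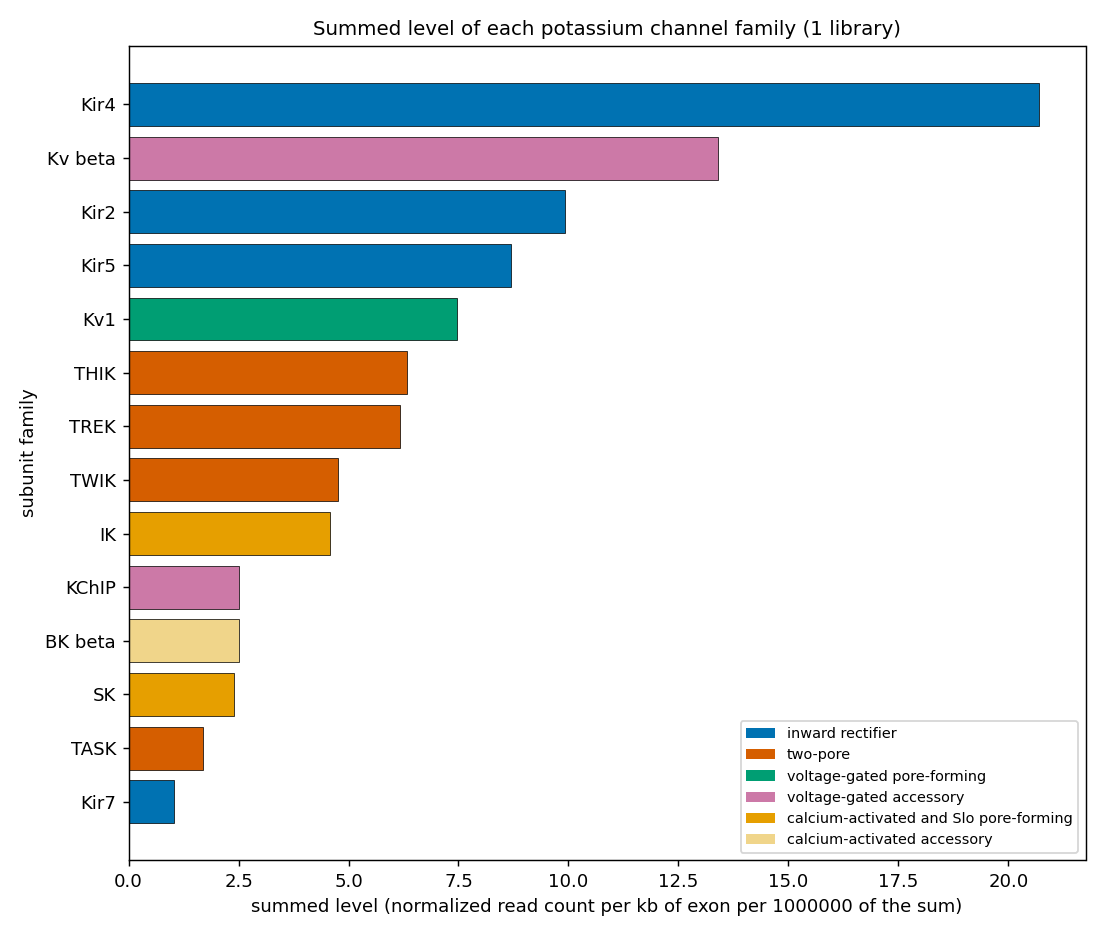
Summed level (normalized read count per kilobase of exon per 1000000 of the sum) of each subunit family in the control library, with bars from 0 and colours by class. Kir4 has the longest bar at 20.7, and families with a sum under 1 are not drawn.

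Short sets of channel genes that textbooks describe in a cell type were compared. The sets were chosen with earlier results of these data known, and they leave out high members such as Kcnab2, Kcnj15 and Kcnj12. Values of a mixed culture cannot place a gene in a cell type. The 4 astrocyte channel genes (Kcnj10, Kcnj16, Kcnk1, Kcnk2) were all detected, with a median level of 7.34. The 6 microglial genes (Kcna3, Kcna5, Kcnj2, Kcnk6, Kcnk13, Kcnn4) had a median level of 3.52, and 5 were detected. The 13 neuronal genes had a median level of 0.123, and 9 were detected, beside 67.2% of all genes in the table. A value of 100 or more was reached by 5 neuronal genes, among them Kcna2, Kcnn2, Kcna1 and Kcnn3, beside 51.6% of all genes. The 3 mural genes were spread widely. Kcnmb1 had a level of 2.02, Kcnma1 0.184 and Kcnj8 0.0712.

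Cell type markers were read beside these sets, and their part in the channel values was not tested. The 6 microglial markers had a median level of 129 and ranged from 17.4 for P2ry12 to 1138 for C1qa, and all were detected. The 6 astrocyte markers had a median level of 24.8, from 0.0543 for Gjb6 to 148 for Gfap. The 6 neuronal markers had a median level of 0.0932 and summed to 3.13. Their values ran from 3 for Th, which marks dopamine neurons, to 124 for Tubb3. The 6 oligodendrocyte lineage markers were all detected, among them Sox10 at a level of 0.571 and Mbp at 47. Mural markers were split, with Acta2 at a level of 438 and Rgs5, which marks pericytes, at 0.0718. Fibroblast markers ranged from 6.74 for Lum to 93.5 for Col1a1, and of the endothelial markers Tek was listed at 0. The 4 endothelial markers reached at most a level of 0.371, for Cdh5.

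**Figure D4:**
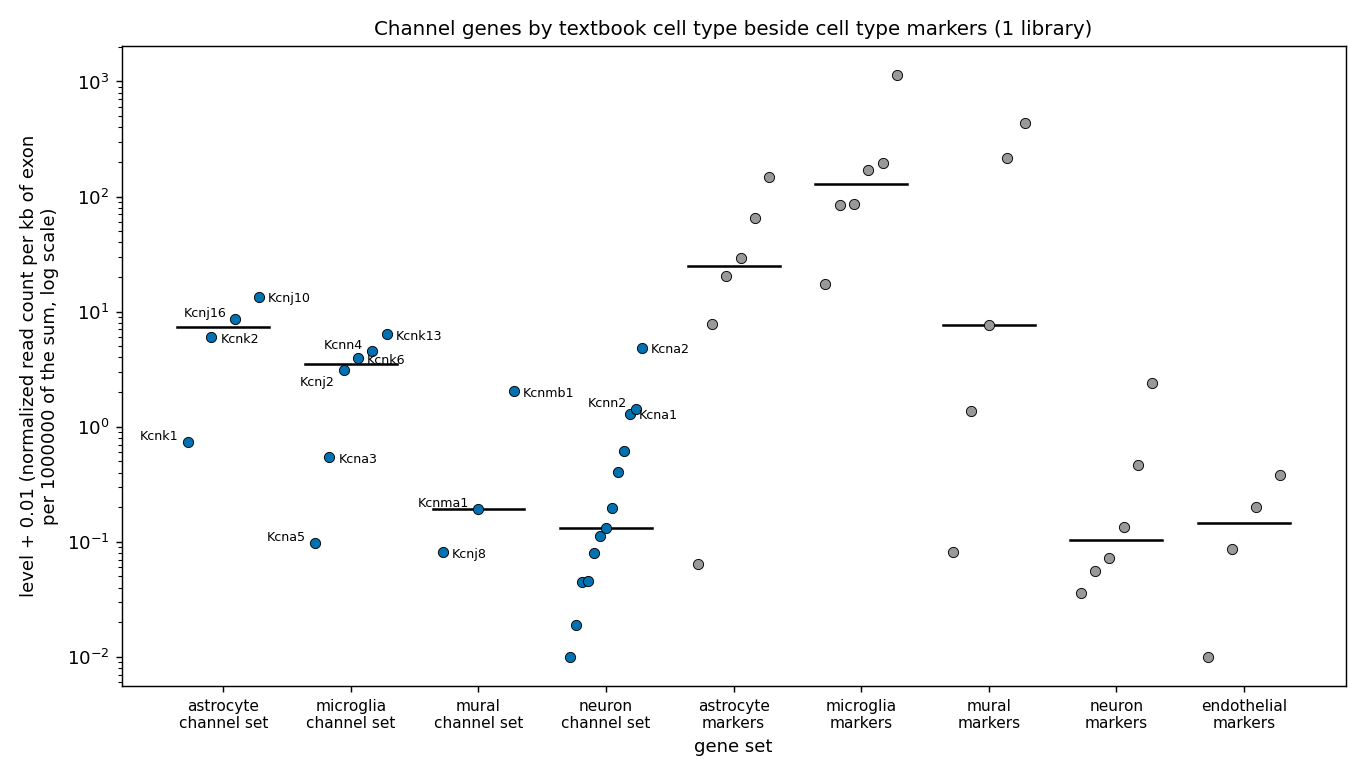
Level plus 0.01 (normalized read count per kilobase of exon per 1000000 of the sum, log scale) of channel genes grouped by textbook cell type (blue) and of cell type markers (grey), with 1 point per gene and the median of each set as a bar. The astrocyte channel set has the highest median of the 4 channel sets, 7.34, and the microglial markers the highest of the 5 marker sets drawn, 129.

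Partner genes of the channels were taken from a set of 36, of which 30 were detected and 22 reached a value of 100. Over all genes in the table these shares were 67.2% and 51.6%. The sulfonylurea receptors that complete ATP-sensitive channels were low, with Abcc9 at a value of 25 and Abcc8 at 16. Both were detected, unlike the Kir6 genes. The BK gamma subunits reached at most 16, for Lrrc55. Of the Kv4 partners, Dpp6 had a value of 36 and Dpp10 of 17, and the Kv2 partner Amigo1 had 189. Of the hyperpolarization-activated channels only Hcn2 was detected, at 183. The organelle potassium channels Tmem38b, Tmem38a and Tmem175 had levels of 7.69, 8.09 and 2.76.

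Genes of channel trafficking and potassium transport were measured beside the channels. Sgk1 itself had a level of 45.2, and Nedd4l, which encodes Nedd4-2, a level of 1.77. Some subunits known as SGK1 targets are given here, a group put together after the values were seen and not a full list. Among them, Kcna3 had a level of 0.534, Kcnj1 0.109, Kcnq1 0.062 and Kcne1 0.0339. They do not show the level of SGK1 targets as a whole. Kcnq1 and Kcne1 were below a value of 10 and so not called detected. Of the partners of potassium clearance in astrocytes, Gja1 had a level of 14.8, Dag1 21.1, Aqp4 29.4 and Atp1b2 136, so each of these exceeded Kcnj10 at 13.4. Among cation-chloride cotransporters, Slc12a4 had the highest level, 20.4, and the neuronal Slc12a5 the lowest, 0.857.

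Some members lie within 500 kb of another member or of a partner gene, and some of these pairs are given. Pairs with unlike levels and pairs with near-equal levels were both found, but the near-equal pairs given were low in both genes. Kcnj10 and Kcnj9 lie 11.9 kb apart on chromosome 1 and had levels of 13.4 and 0.102. On chromosome 11, Kcnj16 and Kcnj2 lie 38.2 kb apart and had levels of 8.69 and 3.11. On chromosome 3, Kcna2 lies between Kcna10 and Kcna3, at 68.1 and 63.1 kb, and had a level of 4.86 against 0 and 0.534. On chromosome 16, Kcnj15 and Kcnj6 lie 260 kb apart and had levels of 7.27 and 0.185. On chromosome 6, Kcnj8 lies 16.2 kb from Abcc9, its channel partner, and their levels were 0.0712 and 0.108. Kcna7 and Kcnj14 on chromosome 7, 407 kb apart, had levels of 0.183 and 0.174, from values of only 11 and 13. Kcnmb2 and Kcnmb3 on chromosome 3 were both listed at 0.

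Exons of 28 of the 94 genes overlap another annotated gene, 26 of them on the opposite strand, and the strand setting of the counting was not stated. Among the 10 highest by level these were Kcnab2, on the same strand, and Kcnj15 and Kcnk2, on the opposite strand. Their overlaps covered 125, 333 and 604 of 5578, 6313 and 4943 exon bases. The antisense RNA Kcnq1ot1, which was not a member, had a value of 1011 and overlaps the exons of Kcnq1, at 7, over 121 bases. No 2 subunit genes shared a transcript stretch of 100 bases at 95% identity. Kcnj14 shared 1242 bases at 99.1% with the annotated gene Gm5522, so its value is uncertain. Across the 94 genes, value and exon length had a Spearman rho of 0.29, and across all genes 0.41. These are descriptions across genes of 1 library, which share its depth and are not replicates.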

How the data were processed

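Total RNA was isolated with Trizol, and a SMARTer kit for mRNA gave 1 library. Per the study's methods, the authors trimmed bases with a quality under 20, mapped reads to GRCm38/mm10 with STAR and ran HTSeq-count over the exons of RefSeq Release 105. The submitters' processing notes name TopHat and edgeR with mm10, so the aligner is uncertain. The deposited score of each gene is a whole number that the authors made by counting and normalizing reads, and call a normalized read count. It was not treated as a raw count, since the normalization, strand setting, handling of multi-mapped reads and versions are not given in the sources used here. The study's methods also name FPKM, a value scaled by exon length and depth. Every level here assumes that the deposited score was not already divided by length. The number of reads is unknown, so no interval or detection floor is given, and only the sum of values, 27569507, stands for depth.

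From these values a level was computed as value per kilobase of the union of exons in GENCODE M21 (GRCm38) per 1000000 of the sum. Of 23282 rows, 22922 (98.5%) had a length, including every member. This annotation is not the one the authors counted on, so lengths are approximate. No test was run, because the control group held 1 library. The members and gene sets were chosen with earlier results of these data known. Named were all members at a value of 100 or more, the highest member and the members at 0 of each class, members of the textbook sets, and partner and marker genes. Some of these are not reported here. Other genes were named after their values were seen. The level computation was tested on simulated data. Alternatives were other detection minima, other lengths, other sums and members left out. Transcripts were compared with BLAST 2.17.0. Tables and figures were made in Python 3.11.15 (scipy 1.17.1, pandas 2.3.3, numpy 2.4.6, matplotlib 3.10.9).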

Additional observations from a re-analysis of the deposited data

How the results depend on the processing

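With 1 library, each result is limited to this culture, and no value has an error to set a change against. Of 57 recomputed values 40 moved, which for a count of genes means by over 1.5 times and for other values any change at 3 significant digits. No paired analysis was possible because 1 sample was analysed. With detection set at 1, 3 or 100, the detected members numbered 75, 72 and 19, beside 78.2%, 73.9% and 51.6% of all genes. At 100, the mural set kept 1 member and the neuronal set 5. The 10 highest members by level were also the 10 highest with the longest transcript as length, where Kcnab2 came before Kcnj10 and Kcnk2 before Kcnj15, Kcnj12 and Kcnk13, and 9 of them with no division by length, where Kcnj2 stood in place of Kcnk6. Median levels below are given in the order inward rectifier, two-pore, voltage-gated and calcium-activated. They were 0.185, 0.0899, 0.0796 and 0.288 as reported. They were 0.337, 0.106, 0.0863 and 0.375 with the longest transcript, and 0.19, 0.0921, 0.0815 and 0.295 with the sum taken without the 45S ribosomal RNA precursor Rn45s. They were 0.214, 0.104, 0.0919 and 0.333 with the sum taken without the 10 highest genes, and 1.03, 1.63, 0.401 and 0.436 over detected members only. With no division by length the medians per 1000000 of the sum were 0.725, 0.49, 0.29 and 2.16. All lay below the median over all genes on the same scale, which was 1.12 as reported, 1.44 with the longest transcript, 4.32 with no division and 3.72 over detected genes. Both changes of the sum multiply every level alike, by 1.02 and 1.15. The order of the classes changed over detected members only, where two-pore genes came first. In the same class order, shares of the summed level were 37.8%, 18.9%, 30.9% and 12.3% with the longest transcript, 38.3%, 15.2%, 35.4% and 11% with no division by length, and 45.2%, 20.9%, 24.9% and 8.76% without the highest member of each class. With no division by length, median values per 1000000 were 31.9 for the astrocyte set, 16.6 for the microglial, 3.12 for the mural and 1.16 for the neuronal set. The rho of value with length was 0.2 with the longest transcript, an alternative chosen after seeing the data.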
